A study of Mus musculus with 6 samples.

Results

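The 10 heat shock chaperone genes Hspa1a, Hspa1b, Hsph1, Dnajb1, Dnajb4, Hsp90aa1, Hspb1, Hspa8, Hsp90ab1 and Dnaja1 were described in sorted mouse hepatic stellate cells, out of 24346 gene symbols listed in each library. They were chosen by name, with earlier results of these data known. The first 7 were taken as inducible and the last 3 as constitutive, with Dnaja1, which is abundant at rest and can also rise with heat, put among the constitutive genes. All 10 were listed above 0 in every library and passed the filter on low values, a mean of 1 FPKM or more over the libraries, as did 11558 genes in all. FPKM count fragments per kilobase of a transcript and are scaled by a library size, here in a way that is not stated.

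The cells came from wild type C57BL/6 mice of 35 weeks. The 3 liver sources were livers on a normal diet, the non-tumour region of livers on a high-fat diet, and the tumour region of livers on a high-fat diet. Cells of each source were isolated by perfusion at 6 degrees or at 37 degrees and sorted as CD31-/CD45.2-/CD49a+. Each of the 6 combinations held 1 library, and the labels do not say how many mice a library holds or whether libraries share a mouse, so p-values measure the spread between these libraries, which may be technical. Libraries of 6 degrees are called cold here and those of 37 degrees warm, and sets of 3 values run in the order normal diet, non-tumour region and tumour region. The study asked which side effects an incubation at high temperature has on the transcriptome.

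Heat shock proteins hold unfolded proteins in a state from which they can fold. HSP70 proteins bind exposed hydrophobic stretches in a cycle of ATP hydrolysis that J-domain proteins (the Dnaja and Dnajb genes) start and that nucleotide exchange factors such as the product of Hsph1 (HSP110) end, HSP90 proteins act later on near-native clients such as kinases and steroid receptors, and small heat shock proteins such as the product of Hspb1 (HSP25) hold unfolded proteins without ATP. Cells carry constitutive forms (HSC70 from Hspa8, HSP90 beta from Hsp90ab1) beside inducible ones (HSP70 from Hspa1a and Hspa1b, HSP90 alpha from Hsp90aa1). Heat and other stresses that unfold proteins free the transcription factor HSF1, which binds heat shock elements, repeats of nGAAn in alternating orientation. Warm enzymatic dissociation of tissue is known to switch on such stress genes.

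Hspa1a and Hspa1b are shown first because the near-identity of the 2 copies bears on how their reads are assigned. Both lie on the minus strand of chromosome 17 (GRCm38), Hspa1a at 34969190 to 34972156 and Hspa1b at 34956436 to 34959238. Each has a single exon, and 9951 bases separate them. Their coding sequences (GENCODE M21 transcripts, longest open reading frame) were 99.4% identical, and 58.8% of the 50-base windows of Hspa1a also occurred in Hspa1b. The 250 bases before their start sites (RefSeq, GRCm38.p6, minus strand, chr17:34972157-34972406 for Hspa1a and chr17:34959239-34959488 for Hspa1b) differed at 3 positions, an identity of 98.8%. The capitals mark GAAGATTC, a match to GAANNTTC, which is a pair of facing heat shock units.
Hspa1a: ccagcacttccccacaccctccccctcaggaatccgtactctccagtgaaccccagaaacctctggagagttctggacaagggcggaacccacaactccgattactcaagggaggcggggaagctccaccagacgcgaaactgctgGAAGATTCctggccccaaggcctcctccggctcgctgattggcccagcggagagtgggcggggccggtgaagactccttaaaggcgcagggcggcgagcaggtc
Hspa1b: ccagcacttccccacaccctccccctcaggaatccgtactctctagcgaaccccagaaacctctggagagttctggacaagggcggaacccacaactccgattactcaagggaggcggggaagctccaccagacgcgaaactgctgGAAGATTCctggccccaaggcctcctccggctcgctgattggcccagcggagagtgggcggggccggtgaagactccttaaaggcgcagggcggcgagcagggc
The match lay 104 to 97 bases upstream of the start in both copies. The stretch of Hspb1 is shown because it held 2 such matches in 60 bases (RefSeq, GRCm38.p6, plus strand, chr5:135887786-135887845), here in capitals.
Hspb1: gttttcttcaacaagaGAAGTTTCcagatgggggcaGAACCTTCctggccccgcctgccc
Promoter windows of 300 bases (250 before to 50 after the start) were matched for 7 of the 10 genes, all but Hspa8, Hsp90aa1 and Hsp90ab1. A 2-unit match (GAANNTTC or TTCNNGAA; each motif is its own reverse complement, so 1 search covers both strands) was found in 7 of the 12 windows of these genes and in 15.1% of all 32851 windows. The 6 genes with a match were Hspa1a, Hspa1b, Hspb1, Hsph1, Dnaja1 and Dnajb4. A 3-unit match (GAANNTTCNNGAA or TTCNNGAANNTTC, the reverse complement of each other, both holding 2-unit matches) was found in 0.603% of all windows and in 2 windows, both of Hsph1, downstream of the start. The 2 windows overlap and hold the same site, 16 and 37 bases downstream of their starts. Both also count among the 7 windows with a 2-unit match. These matches describe letters in these windows and are not sites shown to be bound.

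Some facts of the whole data set touch the results below. The libraries held about 16828300 to 23476300 fragments, estimated from the smallest steps between low values. This estimate takes FPKM as divided by each library's own total, which is not stated in the sources used here. Stellate cell markers summed to 23310 to 26410 FPKM at 6 degrees and 26200 to 37780 at 37 degrees, with all 13 listed in every library, led by Dcn and Ecm1. Of these, 4 were higher at 37 degrees by limma (Lrat, Hand2, Hgf and Cygb, from 0.39 to 0.52 on log2(FPKM + 1)), 12 at an unadjusted p under 0.05, and the median of the 13 was 0.37. Markers of other cells were also present: 14 endothelial markers summed to 2119 to 4766 FPKM at 6 degrees and 449 to 992 at 37 degrees (13 of 14 lower at 37 degrees by limma at an adjusted p under 0.05), and 14 macrophage markers to 534 to 2221 and 35.7 to 891 (9 of 13 tested lower, with Marco and Timd4 listed at 0 in at least 1 library). Pecam1, which encodes the CD31 that the sort selected against, had 31.4, 90.6 and 53.0 FPKM when cold and 0.900, 9.99 and 10.7 FPKM when warm. The part of these other cells in the chaperone values was not tested, and in bulk RNA fewer cells of a type and less RNA per cell cannot be told apart.

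The first comparison was between isolation temperatures, with liver source as a term. The inducible HSP70 genes had the largest ratios between temperatures among the 10 in the normal diet and non-tumour pairs. In the tumour pair Hspa1a had the largest, and Hspa1b came after Dnajb1. Hspa1a had 2.94, 4.01 and 5.85 FPKM in the cold libraries and 167, 119 and 58.9 FPKM in the warm ones. The order of the sources was thus opposite at the 2 temperatures: normal diet was lowest when cold and highest when warm. The ratio of 37 to 6 degrees was 56.9 in normal diet, 29.6 in the non-tumour region and 10.1 in the tumour region. Hspa1b had 2.67, 2.68 and 5.70 FPKM when cold and 167, 124 and 26.7 FPKM when warm, ratios of 62.5, 46.4 and 4.68. In both genes each warm library exceeded each cold one. On log2(FPKM + 1), a scale that understates the change of low genes, Hspa1a rose at 37 degrees by 4.37 ± 0.42 (SE, 3 pairs of libraries, limma, Benjamini-Hochberg adjusted p = 0.0103) and Hspa1b by 4.22 ± 0.67 (limma, adjusted p = 0.0307).

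Counting error was small beside these differences. Hspa1a corresponded to about 205 to 344 fragments at 6 degrees (a counting error of 5.39 to 6.99%) and 2939 to 9716 at 37 degrees, and Hspa1b to about 149 to 317 and 1259 to 9172. How the authors' quantification divided reads between the 2 copies is uncertain. Hspa1b was listed at 90.9%, 66.8% and 97.4% of Hspa1a in the cold libraries and at 99.9%, 105% and 45.3% in the warm ones. The tumour library of 37 degrees was thus the one in which the 2 copies were listed furthest apart. Hspa1l, the neighbouring HSP70 gene 546 bases from Hspa1a on the opposite strand, stayed between 0.125 and 0.262 FPKM, although its coding sequence is 82.9% identical to that of Hspa1a and 7.95% of the 50-base windows of Hspa1a occur in it. Gm20481 overlaps Hspa1a on the opposite strand, and the use of strand in counting is not given in the sources used here.

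**Figure D1:**
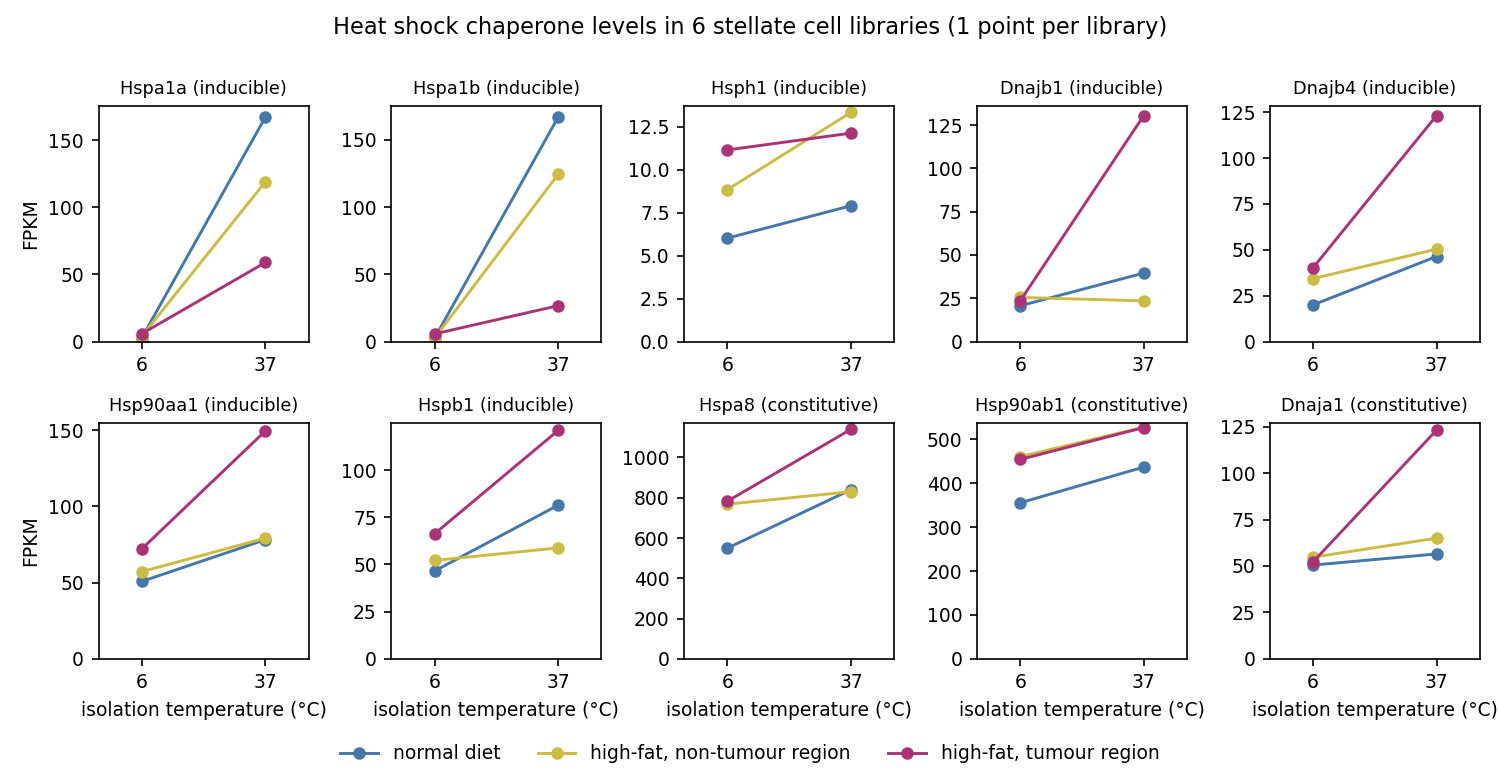
FPKM (vertical axes, linear, starting at 0) of the 10 chaperone genes against isolation temperature in degrees Celsius, with 1 point per library and a line joining the 2 libraries of a liver source. Hspa1a and Hspa1b were highest in the normal diet library of 37 degrees, at 167 FPKM each, whereas Dnajb1, Dnajb4, Hsp90aa1, Hspb1, Hspa8 and Dnaja1 were highest in the tumour library of 37 degrees.

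The inducible J-domain genes had another order of sources. Dnajb4 (chromosome 3, 152178511 to 152210302, minus strand, 6 exons), whose product starts the ATP cycle of HSP70, had 20.0, 34.3 and 40.2 FPKM in the cold libraries and 46.3, 50.3 and 123 FPKM in the warm ones. All 3 libraries of 37 degrees lay above all 3 of 6 degrees, and the tumour library was the highest at both temperatures. Dnajb4 rose by 1.10 ± 0.20 on log2(FPKM + 1) (SE, 3 pairs, limma, adjusted p = 0.0441). Dnajb1 (chromosome 8, 83608193 to 83612653, plus strand, 3 exons), the HSP40 that partners inducible HSP70, had 20.7, 25.5 and 23.5 FPKM when cold and 39.6, 23.5 and 130 FPKM when warm. The ratio of 37 to 6 degrees was 1.91 in normal diet, 0.922 in the non-tumour region and 5.55 in the tumour region, so the groups overlapped. The fitted difference was 1.07 ± 0.46 and did not pass (limma, adjusted p = 0.270, 95% interval -0.08 to 2.22).

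Hsp90aa1 (chromosome 12, 110690605 to 110702728, minus strand, 11 exons), the inducible HSP90, had 50.8, 57.2 and 72.2 FPKM when cold and 78.2, 79.2 and 149 FPKM when warm. The temperatures did not overlap, and the rise of 0.70 ± 0.12 passed (limma, adjusted p = 0.0420). Hspb1 (chromosome 5, 135887919 to 135889563, plus strand, 3 exons) had 46.6, 52.2 and 66.3 FPKM when cold and 81.4, 58.8 and 121 FPKM when warm. The non-tumour library of 37 degrees lay below the tumour library of 6 degrees, and the difference of 0.61 ± 0.15 did not pass (limma, adjusted p = 0.0982). Hsph1 (chromosome 5, 149614287 to 149636376, minus strand, 19 exons), the exchange factor of HSP70, had 6.02, 8.84 and 11.1 FPKM when cold and 7.90, 13.3 and 12.1 FPKM when warm. Its libraries differed more by source than by temperature, and the temperature difference of 0.33 ± 0.12 did not pass (limma, adjusted p = 0.206, 95% interval 0.03 to 0.63).

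None of the 3 constitutive genes passed for temperature in limma, with 2 of them, Hspa8 and Hsp90ab1, at an unadjusted p under 0.05. Hspa8 (chromosome 9, 40800984 to 40810087, plus strand, 9 exons) had 549.9, 768 and 783 FPKM when cold and 839.9, 829.96 and 1139.7 FPKM when warm. The temperatures did not overlap, but the difference of 0.42 ± 0.12 did not pass (limma, adjusted p = 0.128, 95% interval 0.13 to 0.72). Hsp90ab1 (chromosome 17, 45567775 to 45573271, minus strand, 11 exons) had 355, 460.5 and 454 FPKM when cold and 437, 528 and 527 FPKM when warm. Each source was a little higher when warm, by 1.23, 1.15 and 1.16 times, and the fitted difference was 0.24 ± 0.07 (limma, adjusted p = 0.137, 95% interval 0.06 to 0.41).

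Dnaja1 (chromosome 4, 40722150 to 40737149, plus strand, 9 exons), the third constitutive gene and a J-domain partner of HSC70, was nearly level when cold, with 50.5, 54.7 and 52.2 FPKM. When warm it had 56.5 and 64.9 FPKM in the normal diet and non-tumour libraries and 123 FPKM in the tumour library. Its fitted temperature difference was 0.54 ± 0.22 (limma, adjusted p = 0.249). Smu1, which overlaps Dnaja1 on the opposite strand, stayed between 42.9 and 47.9 FPKM in the 6 libraries and was 43.7 FPKM in the tumour library of 37 degrees. Gm6297, which also overlaps it on the opposite strand, had 0.328, 0.295 and 0.391 FPKM when cold and 0.790, 0.527 and 1.46 FPKM when warm, highest in the same library as Dnaja1.

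Over the 10 genes, 4 rose at 37 degrees by limma at an adjusted p under 0.05 (Hspa1a, Hspa1b, Dnajb4 and Hsp90aa1, all inducible), against 0.51% of all genes tested that were called higher. No gene of the 10 was called lower, against 4.62% of all genes tested. At an unadjusted p under 0.05, 8 of the 10 were higher, against 8.52% of all genes tested. Their median log2 difference was 0.66, against 0.01 over all genes tested. The 10 genes were chosen with earlier results of these data known, so counts set beside these shares describe the set and do not test it. The libraries of 37 degrees were the higher in all 3 pairs for 9 of the 10 genes, all but Dnajb1, a pattern found in 23.4% of all genes tested. The temperatures did not overlap for 6 (Hspa1a, Hspa1b, Dnajb4, Hsp90aa1, Hspa8 and Dnaja1), against 8.31% of all genes tested with all warm libraries above all cold ones. The number of calls fell from 4 to 2 with a pseudocount of 0.1 FPKM (0.346% of all genes tested called higher) or a mean of at least 5 FPKM (0.477%). It fell to 1 without an intensity trend (0.182%). It fell to 0 without the filter on low values or without a source term, where 0 of all genes tested were called. Without the normal diet pair 1 gene passed (Hspa1a), against 0.287% of all genes tested called higher. Without the non-tumour pair 0 passed (0.276% of all), with Hspa1a at an adjusted p of 0.0656 (limma). Without the tumour pair 2 passed (Hspa1a and Hspa1b), against 0.183% of all.

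**Figure D2:**
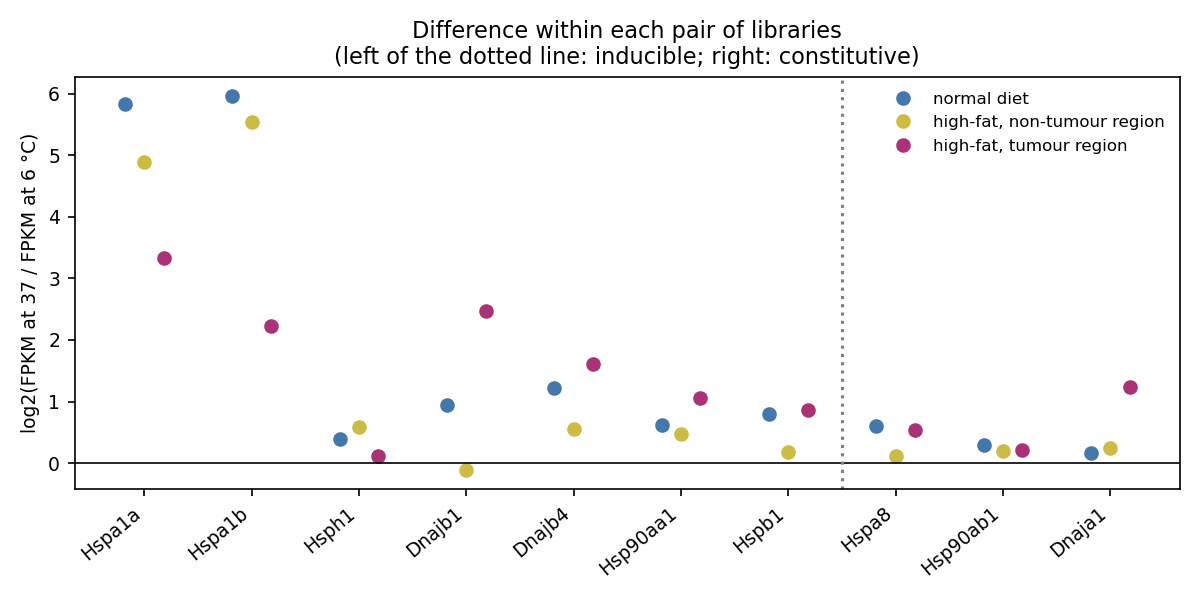
The log2 ratio of FPKM at 37 to FPKM at 6 degrees (vertical axis) for each gene, with 1 point per liver source and no pseudocount. Hspa1b lies at 5.97, 5.54 and 2.23 in the 3 pairs, Dnajb1 at 0.94, -0.12 and 2.47, and Dnaja1 at 0.16, 0.25 and 1.24.

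The levels of inducible and constitutive genes were then set against each other within each library, which is free of the scaling between libraries. FPKM are per length, so levels of different genes are set side by side here. How reads shared by Hspa1a and Hspa1b were counted is not given, which leaves their level against Hspa8 uncertain. Hspa1a and Hspa1b together amounted to 1.02%, 0.872% and 1.48% of Hspa8 in the cold libraries and to 39.8%, 29.3% and 7.51% in the warm ones. Hspa8 was thus listed above Hspa1a and Hspa1b together in every library. The log2 ratio was higher when warm by 5.29, 5.07 and 2.35 in the 3 pairs, a mean of 4.24 ± 1.64 (SD, n = 3 pairs, two-sided exact sign-flip permutation test p = 0.25, the smallest that 3 pairs can give).

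Hsp90aa1 amounted to 14.3%, 12.4% and 15.9% of Hsp90ab1 at 6 degrees and to 17.9%, 15.0% and 28.4% at 37 degrees. Its log2 ratio was higher at 37 degrees in all 3 pairs, by 0.32, 0.27 and 0.84, a mean of 0.48 ± 0.31 (SD, n = 3 pairs, exact sign-flip permutation p = 0.25). Dnajb1 amounted to 41.0%, 46.6% and 45.1% of Dnaja1 at 6 degrees and to 70.1%, 36.2% and 106% at 37 degrees. Its log2 ratio differed by 0.77, -0.36 and 1.23, a mean of 0.55 ± 0.82 (SD, n = 3 pairs, exact sign-flip permutation p = 0.5). Only in the tumour library of 37 degrees was Dnajb1 listed above Dnaja1 among these 6 libraries. The HSP70 ratio moved least in the tumour pair, while the other two ratios moved most there, which was not tested over samples.

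**Figure D3:**
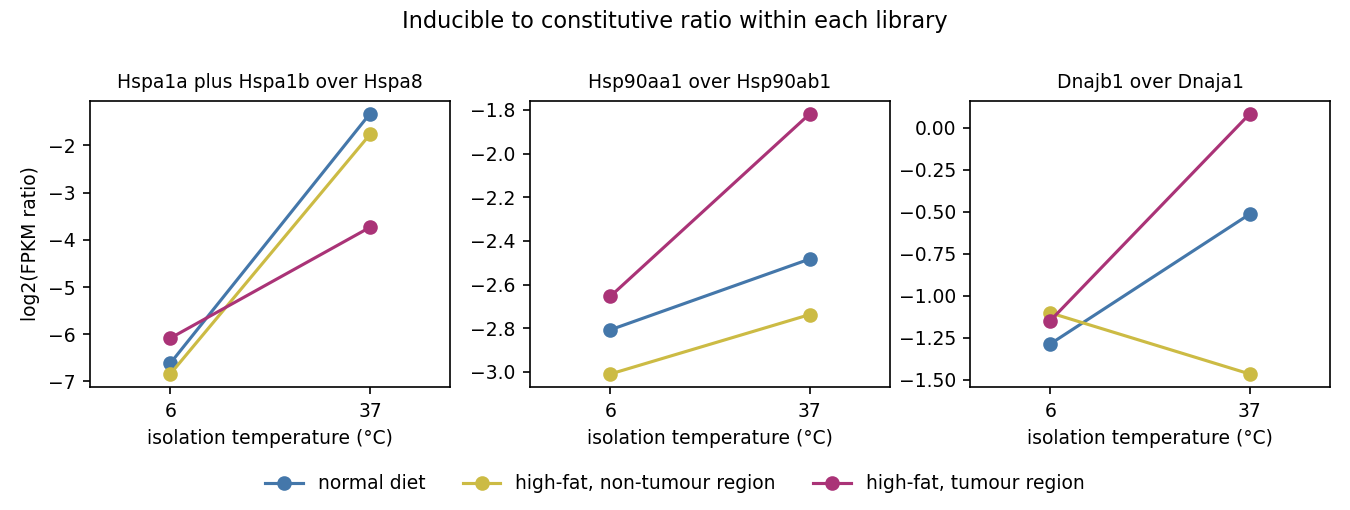
The log2 ratio of an inducible to a constitutive gene's FPKM within a library (vertical axes, which differ in range) against isolation temperature in degrees Celsius, with a line joining the 2 libraries of a source. The HSP70 ratio was higher when warm by 5.29, 5.07 and 2.35 (normal diet, non-tumour region, tumour region), and that of Dnajb1 to Dnaja1 differed by -0.36 in the non-tumour pair.

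The order of levels changed with temperature mainly through the inducible HSP70 genes. At 6 degrees Hspa8 led with 700.4 ± 130 FPKM (SD over 3 sources), followed by Hsp90ab1 with 423 ± 58.9. Hsp90aa1, Hspb1 and Dnaja1 followed with 60.0 ± 11.0, 55.0 ± 10.2 and 52.5 ± 2.14 FPKM and overlapped in their ranges, although Hsp90aa1 lay above Hspb1 in each of the 3 cold libraries. Dnajb4 (31.5 ± 10.4) and Dnajb1 (23.2 ± 2.42) overlapped, Hsph1 had 8.67 ± 2.57, and Hspa1a (4.27 ± 1.47) and Hspa1b (3.68 ± 1.75) were lowest and overlapped. At 37 degrees Hspa8 (937 ± 176 FPKM) and Hsp90ab1 (497 ± 52.2) kept the first 2 ranks, Hspa1a (115 ± 54.2) and Hspa1b (106 ± 71.9) held the third and the fourth, and Hsph1 (11.1 ± 2.85) was last. The 7 genes between Hsp90ab1 and Hsph1, from Hspa1a down to Dnajb1 (64.5 ± 57.7), overlapped in their ranges.

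The second comparison was between liver sources, with temperature as a term. Of the 10 genes, 2 were called higher in the tumour region than in normal diet livers, against 6.07% of all genes tested. Dnajb4 was higher by 1.18 ± 0.24 on log2(FPKM + 1) (SE, 2 pairs, limma, adjusted p = 0.0444) and Hsp90aa1 by 0.71 ± 0.15 (limma, adjusted p = 0.0493). At an unadjusted p under 0.05 there were 6 genes higher and none lower, against 15.4% and 10.6% of all genes tested, and the median over the 10 was 0.56, against 0.01 over all genes tested. Hsph1 lay just past the threshold, at 0.68 ± 0.15 (limma, adjusted p = 0.0504). Hspa1a and Hspa1b had differences of -0.35 ± 0.51 and -0.87 ± 0.82 (limma, adjusted p = 0.720 and 0.563), since they were higher in the tumour region at 6 degrees, by 1.99 and 2.13 times, and lower at 37 degrees, at 0.352 and 0.160 times the normal diet level. Macrophage markers were higher in the tumour region too, at 2221 and 891 FPKM (6 and 37 degrees) against 534 and 49.1 in normal diet. Their part in the chaperone differences was not tested. Both calls were lost with a pseudocount of 0.1 FPKM (4.91% of all genes tested called higher) or a mean of at least 5 FPKM (5.57%). They were also lost with no intensity trend (4.83%), no filter (0%) or no temperature term (0.0346%). The call of Hsp90aa1 was lost too with quantile normalization and median-ratio rescaling, under both of which Hsph1 passed (limma, adjusted p = 0.0489 and 0.0491).

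The non-tumour region used the same normal diet libraries as its control. No gene of the 10 was called there by limma, against 2.98% of all genes tested called higher, and 2 were higher at an unadjusted p under 0.05 (12.6% of all genes tested): Hsph1 by 0.59 ± 0.15 (adjusted p = 0.0885) and Hsp90ab1 by 0.32 ± 0.08 (adjusted p = 0.0959). The median of the 10 was 0.13. Between the tumour and the non-tumour region no gene of the 10 was called by limma either, against 0.45% of all genes tested called higher. Dnajb4, Hsp90aa1 and Hspb1 were higher in the tumour region at an unadjusted p under 0.05 (6.36% of all genes tested), with differences of 0.75, 0.62 and 0.69 (limma, adjusted p from 0.273 to 0.406).

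At 6 degrees the highest library was 1.08 times the lowest for Dnaja1, 1.23 times for Dnajb1 and 1.30 times for Hsp90ab1. It was 1.42 times for each of Hsp90aa1, Hspb1 and Hspa8. For Hsph1 it was 1.85 times, for Hspa1a 1.99 times, for Dnajb4 2.01 times and, at most, 2.13 times for Hspa1b. All 10 genes had their lowest value of 6 degrees in the normal diet library, a pattern shown by 44% of all genes tested. At 37 degrees the highest library was 6.26 times the lowest for Hspa1b, 5.55 times for Dnajb1, 2.84 times for Hspa1a and 2.66 times for Dnajb4. For Hsp90ab1, Hspa8 and Hsph1 it was 1.21, 1.37 and 1.69 times, less than at 6 degrees. The tumour library of 37 degrees was the highest of all 6 for 6 of the 10 genes (Dnajb1, Dnajb4, Hsp90aa1, Hspb1, Hspa8 and Dnaja1), against 19.3% of all genes tested.

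The third comparison asked whether the temperature effect differed between sources. No gene of the 10, and 0% of all genes tested, passed for such a difference in either direction in limma, with 1 residual degree of freedom beside the prior. For the tumour pair against the mean of the others, 2 of the 10 genes were lower and 3 higher at an unadjusted p under 0.05, against 2.32% and 5.09% of all genes tested. Hspa1b had a smaller difference in the tumour pair, by -3.26 ± 0.25 on log2(FPKM + 1) (unadjusted p = 4.24e-05, limma, adjusted p = 0.110), and so did Hspa1a, by -1.87 ± 0.37 (adjusted p = 0.292). Dnaja1, Dnajb1 and Hsp90aa1 had larger ones, by 1.02 ± 0.16, 2.03 ± 0.43 and 0.50 ± 0.17 (limma, adjusted p = 0.215, 0.329 and 0.614). For the non-tumour pair 4 genes were lower at an unadjusted p under 0.05, against 1.94% of all genes tested (Dnajb1, Dnajb4, Hspb1 and Hspa8, from -1.78 to -0.46, limma, adjusted p = 0.9998), and for the normal diet pair none was. In the tumour library of 37 degrees Pecam1 was at 10.7 FPKM, against 0.900 FPKM in the normal diet and 9.99 FPKM in the non-tumour library of 37 degrees. Ptprc, which encodes CD45, was at 5.44 FPKM there, against 0.397 and 0.375 FPKM in the same libraries. The part of either in the differences between pairs was not tested. Hspa1b was listed at 45.3% of Hspa1a in the tumour library of 37 degrees, against 66.8% to 105% in the other libraries. How reads were divided between these 2 copies is not known, and its part in the Hspa1b difference was not tested.

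**Figure D4:**
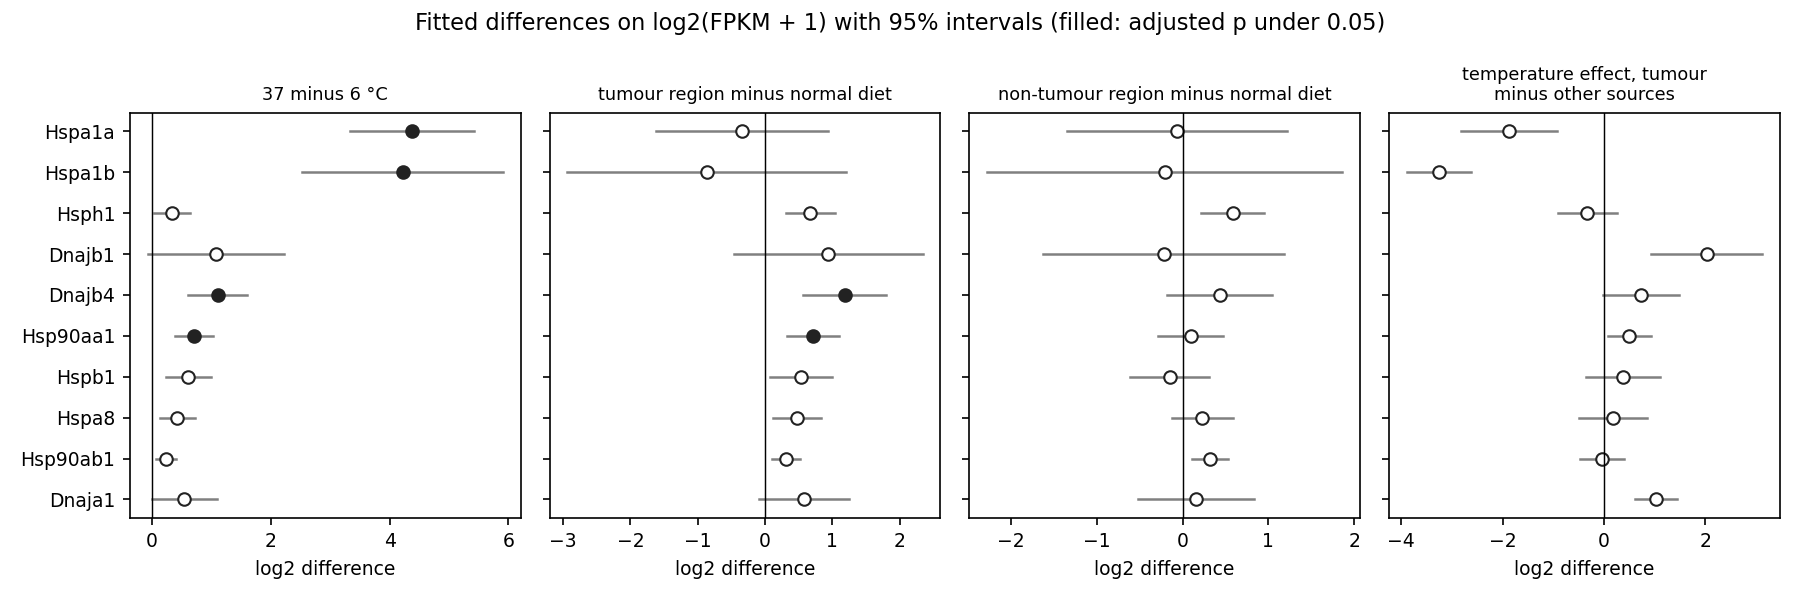
Fitted differences on log2(FPKM + 1) for temperature, for 2 source contrasts and for the temperature effect in the tumour pair minus that in the other pairs, with 95% intervals as bars. Filled points passed at an adjusted p under 0.05: Hspa1a, Hspa1b, Dnajb4 and Hsp90aa1 for temperature and Dnajb4 and Hsp90aa1 for the tumour region against normal diet.

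The rest of the chaperone network was described from 8 lists with 88 genes, of which 79 were tested. For temperature 0 of the 79 were called higher by limma and 1 lower, against 0.51% and 4.62% of all genes tested. At an unadjusted p under 0.05 there were 6 higher and 2 lower, against 8.52% and 12.1% of all genes tested, and the median was 0.04. The gene called lower was Hmox1, the stress-inducible heme oxygenase, with 34.9, 42.6 and 57.4 FPKM when cold and 21.4, 18.4 and 29.8 FPKM when warm, a difference of -0.92 ± 0.11 (limma, adjusted p = 0.0154). Macrophages express Hmox1 strongly, and 9 of 13 macrophage markers fell at 37 degrees; their part in this difference was not tested. The libraries of 37 degrees were the higher in all 3 pairs for 21 of the 79 (23.4% of all genes tested, as above), and the tumour library of 37 degrees was the highest for 25 (19.3% of all genes tested).

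Chaperones of the endoplasmic reticulum and mitochondria were led by Hspa5 (BiP), with 433, 829 and 768 FPKM when cold and 428, 951 and 1215 FPKM when warm, and by Hsp90b1 (GRP94), between 381 and 613 FPKM. Neither passed for temperature (limma, adjusted p = 0.330 and 0.606). Against normal diet, 4 of the 79 were called higher in the tumour region (Hspa5, Dnajb11, Hspe1 and Rgs2) and 2 lower (Hspa12a and Dnajc9), against 6.07% and 3.28% of all genes tested. In the non-tumour region, with the same normal diet libraries, 4 were called higher (Hspa5, Hyou1, Dnajb11 and Rgs2) and 2 lower (Dnajc9 and Hspb6), against 2.98% and 2.59% of all genes tested. The mitochondrial HSP70 gene Hspa9 had 58.0, 63.8 and 59.3 FPKM when cold and 69.3, 70.6 and 67.9 FPKM when warm. Its temperatures did not overlap, but the difference of 0.20 ± 0.07 did not pass (limma, adjusted p = 0.196). The chaperonin gene Cct5 stayed between 120.2 and 143 FPKM. Among small heat shock protein genes Cryab, an ATP-independent chaperone like HSP25, stayed between 185 and 239 FPKM.

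Hsf1 itself had 20.4, 22.0 and 20.3 FPKM when cold and 21.6, 27.2 and 24.4 FPKM when warm (limma, adjusted p = 0.261). Of its other listed targets Ubb, a ubiquitin gene, was between 1359.5 and 1505 FPKM in 5 libraries and at 2516 FPKM in the tumour library of 37 degrees. It did not pass for temperature (limma, adjusted p = 0.507). Serpinh1, which encodes the collagen chaperone HSP47, stayed between 276 and 365 FPKM.

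The 10 genes varied together in different ways over the 6 libraries. Libraries of 1 temperature share their isolation, and the correlations are given as a description. On log2(FPKM + 1) Hspa1a and Hspa1b had r = 0.98 with each other. Dnajb4 had r = 0.98 with Hsp90aa1 and with Hspa8, and Dnajb1 had r = 0.94 with Hspb1 and 0.93 with Dnaja1, while Hspa1b had r = 0.30 with Dnajb1 and with Dnaja1. Hsph1 had its highest r, 0.94, with Hsp90ab1. Of all genes tested, the 5 most like Hspa1a were Kat6b (r = 0.99), Malat1 (0.99), Hspa1b (0.98), Slc12a2 (0.98) and Pcdhga1 (0.98). Malat1, a nuclear long non-coding RNA, had 163, 188 and 180.5 FPKM when cold and 448, 407 and 295 FPKM when warm, with normal diet lowest when cold and highest when warm. The 5 most like Hspa8 were Ccl7 (r = 0.997), Rpl35a (0.99), Adamts4 (0.99), Pole4 (0.99) and Stk24 (0.99). Ccl7, a monocyte chemokine gene, had 29.3, 77.1 and 85.4 FPKM when cold and 89.6, 100.2 and 244 FPKM when warm.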

How the data were processed

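Deposited FPKM of 6 RNA-seq libraries (1 per group) were used. Per the submitters' processing notes, the authors used TopHat2 2.1.1, Bowtie2 and the mm10 build, and Cuffdiff 2.2.1. Settings, annotation and scaling are not stated there. Each symbol occurred once in the values read, which were used as listed. Numbers of fragments were estimated from low values, of which 75.8 to 79.5% lay within 0.15 of a whole number of fragments.

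The model was limma 3.58.1 (R 4.3.3) on log2(FPKM + 1) with source and temperature as additive terms, empirical Bayes with an intensity trend, a mean of at least 1 FPKM, and 1313 small RNA symbols left out. Additive fits had 2 residual degrees of freedom (5.37 with the prior). Benjamini-Hochberg adjustment ran over 11558 genes, and the code was tested on simulated data. The members and lists were chosen with earlier results of these data known. From other chaperone lists, genes passing for temperature and at most the 3 with the highest mean FPKM are named. Genes named for another contrast, and Bag3 and Ier5, were chosen after their values were seen. Pseudocount, filter, normalization, trend, model terms and left-out pairs were varied.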

Additional observations from a re-analysis of the deposited data

Results flagged for a closer look

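Dnajb1 was the only one of the 10 chaperone genes whose direction differed between sources. Its log2 ratio of FPKM at 37 to 6 degrees was -0.12 in the non-tumour pair (23.5 against 25.5 FPKM) and above 0 in the normal diet and tumour pairs, at 0.94 and 2.47. The temperature effect in the non-tumour pair minus the mean of the other pairs was -1.78 ± 0.65 on log2(FPKM + 1) and did not pass (limma, adjusted p = 0.9998). Each pair holds 1 library per temperature.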

How the results depend on the processing

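The number of the 10 genes called higher at 37 degrees was 4. It was 2 under a pseudocount of 0.1 FPKM (0.346% of all genes tested called higher) and 2 under a minimum mean of 5 FPKM (0.477%). It was 1 without an intensity trend (0.182%). It was 0 without a low-value filter and 0 without a source term, where 0 of all genes tested were called higher. Leaving out 1 source pair gave 0 to 2, against 0.183% to 0.287% of all genes tested. The number stayed 4 with quantile normalization (0.407%) and median-ratio rescaling (0.493%). The number called higher in the tumour region than in normal diet was 2. It was 0 under a pseudocount of 0.1 FPKM (4.91% of all genes tested called higher) and under a minimum mean of 5 FPKM (5.57%). It was also 0 without an intensity trend (4.83%), without a low-value filter (0%) and without a temperature term (0.0346%). The cause of these changes was not tested. Fits without a pair also hold fewer libraries. All 10 genes kept the direction of their temperature difference in the 6 alternatives that change it; the other 4 change only its error or adjustment. Of these 10 alternatives Hspa1a passed in 7, Hspa1b in 5, and Dnajb4 and Hsp90aa1 in 2 each. Among other fitted values of single genes, 3 near 0 changed sign: the temperature difference in the normal diet pair minus the others for Hsph1 (-0.0068 with quantile normalization), that in the tumour pair minus the others for Hspa8 (-0.036 with quantile normalization), and the tumour minus non-tumour difference of Hsp90ab1 (0.0018 with median-ratio rescaling). Source differences within 1 temperature have 1 library per group and are values with no test. The labels give no replicate numbers, and libraries were paired by liver source. With 2 residual degrees of freedom, differences between pairs count as noise. The number of fragments behind each FPKM is an estimate.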

Other observations

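Beyond the 10 chaperone genes, the co-chaperone gene Bag3, whose product links HSP70 to autophagy, was between 17.2 and 23.9 FPKM in 5 libraries and at 43.4 FPKM in the tumour library of 37 degrees. Ier5, an immediate early gene that HSF1 can induce, was between 8.90 and 15.6 FPKM in those 5 and at 49.9 FPKM in the tumour library of 37 degrees. Neither passed for temperature (limma, adjusted p = 0.331 for Bag3 and 0.245 for Ier5), and both were named after their values were seen.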
